A study of Arabidopsis thaliana with 6 samples.

Results

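Leaves of the Arabidopsis flu mutant harvested 2 h after a paraquat spray were set against mock-sprayed leaves of the same hour, with 1 microarray on each side. A probe set, the group of short oligonucleotides that reads 1 transcript on the array, entered the comparison if it was no control probe set and its signal was above 86 on at least 1 of the 2 arrays. That floor left 14223 of 22746 probe sets. The difference was taken on the scale log2(signal + 34), and 105 of the 14223 differed by at least 2-fold, which is a log2 ratio of 1 or more in size. These 105 are described here, 64 of them higher in paraquat leaves and 41 lower, together with their values at 1 h and 4 h.

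Paraquat leaves were sprayed with paraquat (methyl viologen) in 0.1% Tween, a detergent, and mock leaves with 0.1% Tween alone. All 6 groups, paraquat and mock at 1, 2 and 4 h, were rosette leaves of 3-week-old soil-grown plants in continuous light, all carried the flu1-1 allele in the Landsberg erecta background, and each group was 1 array. The title of the series names Landsberg erecta without the mutation, and no wild-type sample was analysed here. A sample held the leaves of 5 to 6 plants, and the RNA of 2 experiments was pooled for each array, so that the spread between plants or experiments cannot be seen. The titles give the dose as 20 mM and the treatment protocol gives 20 microM, and the labels do not settle which was used.

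Paraquat is a herbicide that takes electrons from photosystem I in illuminated chloroplasts and passes them to oxygen, which yields superoxide and then hydrogen peroxide. Superoxide dismutases, the ascorbate and glutathione cycle, peroxiredoxins and glutaredoxins remove these species or repair their effects. FLU restrains the synthesis of protochlorophyllide, and flu mutants are known for releasing singlet oxygen in plastids when moved from dark to light. In continuous light they are known to grow like wild type.

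With 1 array a side there is no replicate check on any value below, no test was made, and a fold describes these arrays. Over all 14223 probe sets the median log2 ratio at 2 h was 0.00 with a standard deviation of 0.29, and 92.7% lay within 0.5 of 0. At least 2-fold higher in paraquat leaves were 0.45% of them, at least 2-fold lower 0.288%, and 0.738% in either direction. Median signals of the 6 arrays ran from 157.7 to 162.0, with 59.1% to 60.8% of probe sets above the floor. The mesophyll gene RCA, which encodes Rubisco activase, gave signals of 14414 to 16284 on the 6 arrays. The guard cell genes FMA and AT1G22690 were above the floor, with a summed signal of 2643 in paraquat and 2546 in mock leaves at 2 h, and the root markers AT5G54370 and AT1G12080 were below the floor on all 6 arrays. Whole leaves were used, so fewer cells of a type and less RNA per cell cannot be told apart.

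The 105 probe sets were mostly of modest size. The median log2 ratio was 1.24 among the 64 higher and -1.15 among the 41 lower, 11 and 8 of them reached 3-fold, and 4 and 1 reached 4-fold. Exactly 1 gene was named for 68 of the probe sets, several for 3 and none for 34. With both arrays above the floor were 32 higher and 14 lower probe sets. For the other 32 and 27 only 1 of the 2 arrays was, and this part of the list holds mainly dim probe sets. Among probe sets with a mean signal under 100, 4.50% differed 2-fold, while in the brighter ranges the share lay between 0.333% and 0.595%.

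**Figure D1:**
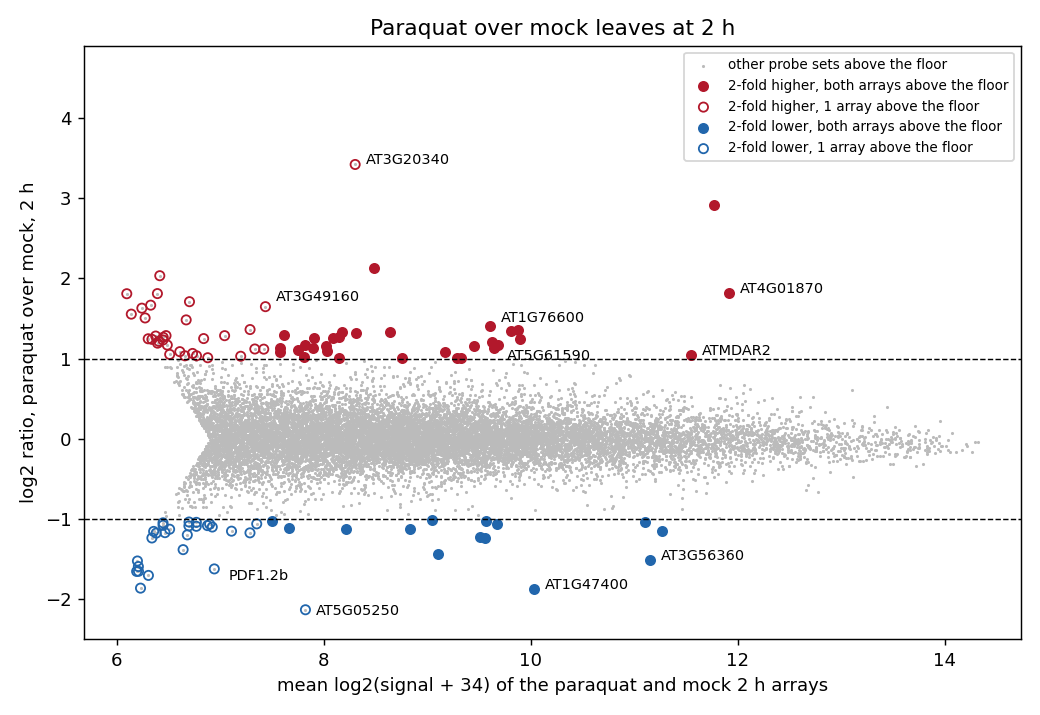
Log2 ratio of paraquat over mock at 2 h (vertical axis) against the mean log2(signal + 34) of the 2 arrays (horizontal axis) for 14223 probe sets, 1 point each. Filled circles are 2-fold different with both arrays above the floor of 86, open circles with 1 array above it, and the dashed lines mark 2-fold. Most open circles crowd at the dim end, while AT4G01870, ATMDAR2, AT3G56360 and AT1G47400 stand out among bright probe sets.

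Several of the higher genes are known to respond to oxidative stress in many treatments. By ratio, AT3G20340, AT4G01870, AT1G76600, UGT73B5 and AT2G41730 ranked 1, 5, 15, 22 and 40 of the 64 higher probe sets. AT3G20340 had the highest ratio of all 105. Its signals were 354, 1001 and 679 in paraquat leaves at 1, 2 and 4 h, against 95.9, 62.6 and 99.1 in mock leaves. Every paraquat signal was above every mock signal, the mock signal at 2 h was under the floor, and the log2 ratios were 1.58, 3.42 and 2.42. The encoded protein has no established function that is given here, and its transcript is known as a general marker of superoxide and peroxide treatments.

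AT4G01870, which encodes a tolB-related protein, came next among the well-measured named genes. Its paraquat signals were 1671, 7238 and 9215 at 1, 2 and 4 h and its mock signals 844, 2020 and 1685. The log2 ratios of 0.96, 1.82 and 2.43 grew with the hour, but the mock signals at 2 h and 4 h exceeded the paraquat signal at 1 h. AT1G76600, a small protein of unknown function, had paraquat signals of 1415, 1242 and 3862, against mock signals of 742, 446 and 338. All 3 paraquat signals lay above all 3 mock signals. Its 2 h ratio of 1.41 was reached with a paraquat signal lower than at 1 h, because the mock signal was lower too, and at 4 h the ratio was 3.39.

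AT2G41730, a small protein known for induction by oxygen shortage and mitochondrial inhibitors, had paraquat signals of 359, 1200 and 2294 and mock signals of 169, 515 and 459. The log2 ratios were 0.95, 1.17 and 2.24, and the mock signals of 2 h and 4 h exceeded the paraquat signal of 1 h. Its probe set carries the suffix that marks possible cross-hybridisation, so the signal may include related transcripts. UGT73B5, a UDP-glucosyltransferase known from redox and pathogen responses, gave 62.6, 274 and 995 in paraquat leaves and 30.7, 91.2 and 102 in mock leaves. At 1 h both arrays were below the floor, and the log2 ratios at 2 h and 4 h were 1.3 and 2.92.

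These 5 genes belong to a list of 25 superoxide and general oxidative stress genes, of which 13 had a probe set of their own and 12 were above the floor at 2 h. Of the 12, 5 were 2-fold higher and 0 were 2-fold lower, 10 had a ratio above 0, and the median was 0.53, beside -0.00 over 7557 genes above the floor. Of those 7557 genes, 42 were 2-fold higher and 25 lower. The list was written with earlier results of these arrays known, so its count is no independent evidence of its direction. The largest remaining ratios in it were 0.56 for LTI30, a dehydrin, and 0.51 for AT1G57630. The zinc finger repressor STZ had signals of 2335 in paraquat and 1770 in mock leaves at 2 h, a log2 ratio of 0.39, and a ratio of 1.08 at 4 h. AT1G19020 and AT1G21520 were slightly lower at 2 h, with ratios of -0.09 and -0.17. The list median was 0.42 at 1 h, over the 11 genes also above the floor there, and 1.09 at 4 h over the 12.

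**Figure D2:**
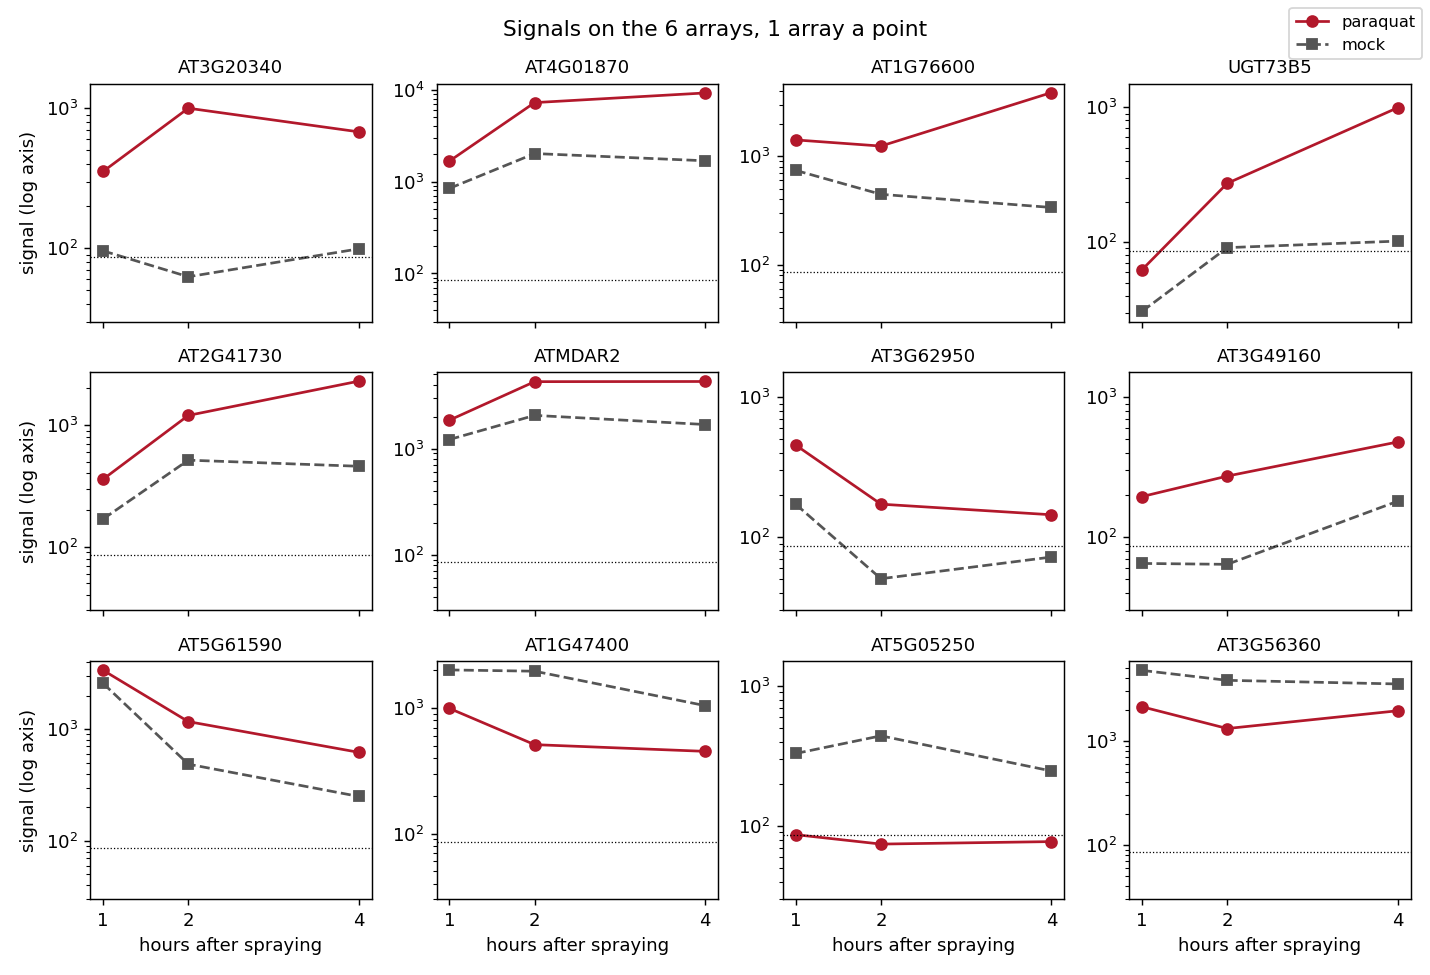
Signals of 12 of the 2-fold different genes on the 6 arrays, with hours after spraying on the horizontal axis and signal on a log axis. Red circles are paraquat arrays, grey squares mock arrays, 1 array a point, and the dotted line is the floor of 86. For AT3G20340, AT1G76600, AT3G49160, AT1G47400, AT5G05250 and AT3G56360 every paraquat signal lies on the same side of every mock signal. For AT5G61590 both lines run downward, and the paraquat signal at 2 h lies below the mock signal at 1 h.

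Of 34 listed antioxidant enzyme genes, 6 had a probe set of their own, and among these only a monodehydroascorbate reductase gene reached 2-fold. ATMDAR2, which returns oxidised ascorbate to ascorbate with NADH or NADPH, had signals of 1849, 4259 and 4273 in paraquat leaves at 1, 2 and 4 h, against 1216, 2051 and 1683 in mock leaves. Its log2 ratios were 0.59, 1.04 and 1.33, and the paraquat signals at 2 h and 4 h were above all 3 mock signals. The other 5 antioxidant genes measured were within 0.27 of 0 at 2 h: the glutathione reductases GR1 and GR, the thylakoid and stromal ascorbate peroxidases TAPX and SAPX, and the peroxiredoxin gene AT3G11630. GR1 had 2015 in paraquat and 1668 in mock leaves, and AT3G11630 had 10523 in paraquat and 11284 in mock leaves. The median of the 6 genes was 0.06. Superoxide dismutases and catalases were not analysed here.

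AT3G62950, a plant-specific glutaredoxin of the CC type, was the only 1 of 13 such genes above the floor to reach 2-fold. Its paraquat signals were 454, 172 and 145 and its mock signals 172, 50.5 and 72.1 at 1, 2 and 4 h. The ratios were 1.25, 1.29 and 0.75, with both treatments lower at the later hours and the mock signal at 2 h under the floor. Its relatives AT4G15680, AT4G15690 and AT4G15660 had ratios of 0.97, 0.77 and 0.56 at 2 h. AT4G15680 had signals of 1344, 1767 and 1001 in paraquat leaves at 1, 2 and 4 h, and 724, 885 and 684 in mock leaves, without overlap. These 3 lie in a cluster of near-identical genes and may share signal, so they are not separate observations. The 13 had a median of 0.12, and AT5G11930 was lowest at -0.34. AT1G30700, a berberine bridge enzyme-like oxidase, was on the lower side with 105 in paraquat and 265 in mock leaves at 2 h, a ratio of -1.11. At 1 h and 4 h its ratios were 0.34 and 0.99.

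AT5G19120, an aspartyl protease family gene known to be repressed by sugar, had signals of 1166, 802 and 411 in paraquat leaves at 1, 2 and 4 h, against 495, 362 and 208 in mock leaves. At each hour the paraquat array was about as far above its mock, with ratios of 1.18, 1.08 and 0.88, while both treatments were lower at later hours. Of 29 listed sugar starvation and dark-induced genes, 14 had a probe set of their own, all above the floor at 2 h. Among these 14, AT5G19120 was the only 1 to pass 2-fold at 2 h. AT3G15450, AT4G27450 and AT1G76240 had ratios of 0.96, 0.94 and 0.92, just short of it, and at 1 h AT3G15450 stood at 1.53 and AT4G27450 at 1.03. AT3G15450 had signals of 716 in paraquat and 352 in mock leaves at 2 h, AT4G27450 had 380 and AT1G76240 had 110 in paraquat leaves, against 181 and 42.0 in mock leaves. Of the 14 genes, 13 had a ratio above 0 and the median was 0.34, beside 0.38 at 1 h, over the 12 also above the floor there, and 0.19 at 4 h over the 14. This list too was written with results of these arrays known.

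A pair of carbohydrate metabolism genes was also higher. AT3G49160, of the pyruvate kinase family, had 195, 273 and 479 in paraquat leaves and 64.9, 64.0 and 181 in mock leaves. Its ratios were 1.21, 1.65 and 1.26, the paraquat signal was above all 3 mock signals at every hour, and it is 1 of 3 probe sets that were 2-fold higher at 1, 2 and 4 h. AT4G10260, a carbohydrate kinase of the pfkB family, was 94.3 in paraquat and 2.60 in mock leaves at 2 h and below the floor on the other 4 arrays, so that its ratio of 1.81 rests on 1 signal near the floor. AT4G10270, a wound-responsive family gene 2 protein-coding genes away, had 97.6 in paraquat and 29.4 in mock leaves, a ratio of 1.05.

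Genes of transcription were among the higher members. AT5G61590 (DEWAX) is an ERF factor known to repress wax synthesis genes. Its signals were 3373, 1169 and 621 in paraquat leaves, against 2575, 486 and 250 in mock leaves. The paraquat array was above the mock array at each hour, with ratios of 0.39, 1.21 and 1.21, but both treatments were far lower at 2 h and 4 h than at 1 h, so the paraquat signal at 2 h was lower than the mock signal at 1 h. AT3G10760, a GARP-type factor, had 394, 601 and 397 in paraquat leaves and 526, 218 and 466 in mock leaves. The 2 h ratio of 1.33 came with a mock signal that was the lowest of the 6 and a paraquat signal that was the highest, and the ratios at 1 h and 4 h were -0.39 and -0.22. AT5G63480, a subunit of Mediator, was 155 in paraquat and 23.7 in mock leaves at 2 h, with ratios of 1.2, 1.71 and -0.27 at the 3 hours.

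Genes of protein phosphorylation and ubiquitin ligases were also among the higher members. AT3G62260, a protein phosphatase 2C, had signals of 661, 1477 and 1427 in paraquat leaves and 406, 554 and 773 in mock leaves. Its ratios were 0.66, 1.36 and 0.86, and the paraquat signals at 2 h and 4 h were above all mock signals. AT1G49200, a RING finger protein of the ATL family, had 300, 306 and 195 in paraquat and 137, 117 and 182 in mock leaves, with no overlap and ratios of 0.97, 1.17 and 0.08. AT3G58890, an F-box gene, AT1G04390, a BTB/POZ gene, and AT1G79620, a leucine-rich repeat kinase gene, had ratios of 1.67, 1.29 and 1.28. Their paraquat signals were only 95.7 to 109, and their mock signals were 11.1 to 23.1. AT5G17700, a MATE-type transporter, was similar with 93.4 in paraquat and 21.7 in mock leaves.

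Cell wall genes stood on both sides. EXGT-A3, an enzyme that cuts and rejoins xyloglucan (also called XTH27), had 1779, 1148 and 2350 in paraquat leaves, against 1156, 506 and 1994 in mock leaves. Both treatments were lowest at 2 h, and the ratios were 0.61, 1.13 and 0.23. The pectin methylesterase gene AT3G05620 had 111 in paraquat and 36.7 in mock leaves and the polygalacturonase family gene AT1G48100 had 133 in paraquat and 49.0 in mock leaves. AT3G15800, a glycosyl hydrolase of family 17, had 9.89 in paraquat and 109 in mock leaves at 2 h, a ratio of -1.70, but 81.4 and 91.5 in paraquat leaves at 1 h and 4 h. Among lipid transfer proteins, AT5G48490 (DIR1-like, of a family known from systemic immunity) was higher, at 467 in paraquat and 167 in mock leaves. The other paraquat signals were 676 at 1 h and 1372 at 4 h and the other mock signals 610 and 998, so 2 h was the low point of both treatments, with a ratio of 1.32. AT1G62510 and AT1G36150 were lower, with ratios of -1.10 and -1.24. AT1G62510 had 49.0 in paraquat and 144 in mock leaves, and AT1G36150 had 18.8 in paraquat and 90.5 in mock leaves.

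Genes known from iron supply were among the lower members. AT1G47400 encodes a short peptide of the IRON MAN family, which signals iron need. It had signals of 995, 512 and 452 in paraquat leaves at 1, 2 and 4 h, against 2015, 1969 and 1047 in mock leaves, and ratios of -0.99, -1.88 and -1.15. All 3 paraquat signals were below all 3 mock signals. Genes of this family are alike in sequence, and the probe set may read more than 1. AT5G05250, a gene of unknown function known to be induced by iron shortage, had 86.7, 74.3 and 77.4 in paraquat leaves and 330, 441 and 247 in mock leaves. Its ratios were -1.59, -2.13 and -1.34, also without overlap. Among lower probe sets with at least 1 array above the floor at every hour, it alone was 2-fold different at 1, 2 and 4 h. At 2 h and 4 h its paraquat signals were under the floor.

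The list of iron deficiency genes had 22 entries, 6 of them with a probe set and 4 above the floor at 2 h. Of these 4, 2 were 2-fold lower and 0 higher, beside 25 lower and 42 higher of all 7557 genes above the floor. The medians of the 4 were -0.83, -1.28 and -1.06 at 1, 2 and 4 h. The size of the 2 h median depends on the floor, since it was -0.68 with the floor required on both arrays and -0.37 without a floor. This list was written after its leading members had been seen, so its count and medians are no independent evidence of its direction. PYE, a bHLH factor of the iron response, had 250 in paraquat and 421 in mock leaves at 2 h, a ratio of -0.68, which was 0.20 at 4 h. AT3G13610, an enzyme of coumarin synthesis, had 241 in paraquat and 231 in mock leaves, a ratio of 0.05. Ferritins, which store iron, were not analysed here. AT5G60800, a protein with a heavy-metal-associated domain, was also lower. Its signals were 833, 532 and 347 in paraquat leaves and 904, 1147 and 760 in mock leaves, with ratios of -0.11, -1.06 and -1.06, and the paraquat signals of 2 h and 4 h were below all mock signals.

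The plant defensin genes PDF1.2b and PDF1.2, markers of jasmonate and ethylene signalling, were both lower at 2 h. PDF1.2b had 60.7, 36.2 and 64.0 in paraquat leaves and 53.3, 182 and 89.8 in mock leaves. PDF1.2 had 36.0, 26.1 and 48.5 in paraquat leaves and 35.3, 93.0 and 52.7 in mock leaves. Ratios at 2 h were -1.62 and -1.08, and at 1 h 0.12 and 0.02. At 2 h the mock signals were the highest and the paraquat signals the lowest of the 6 in both genes, and the paraquat signals were under the floor at all hours. The genes are near-identical, so the probe sets may read the same transcripts.

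AT3G56360, of unknown function, was lower at every hour. Its signals were 2133, 1318 and 1953 in paraquat leaves, against 4776, 3833 and 3537 in mock leaves, without overlap, and its ratios were -1.15, -1.52 and -0.85. AT1G74450, of unknown function, had 1051, 445 and 408 in paraquat leaves and 1460, 1086 and 478 in mock leaves, and ratios of -0.46, -1.23 and -0.21. AT3G28510, of the AAA ATPase family, had ratios of 0.29, -1.17 and -1.47. AT3G21300 and AT4G17610, RNA methyltransferase genes, had ratios of -1.04 and -1.17 at 2 h, with signals of 38.6 and 25 in paraquat leaves and 115 and 98.8 in mock leaves. The chaperone gene AT1G44160 (DnaJ type) was at -1.13, the calmodulin-binding IQD22 at -1.03, and AT3G15570, of the phototropin-signalling NPH3 family, at -1.09.

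Several of the largest log2 ratios belonged to dim probe sets and should be read with their signals. Among the 15 highest named genes, AT3G07350 had 139 in paraquat and 8.24 in mock leaves, AT1G49110 had 124 in paraquat and 10.9 in mock leaves, and the pseudogene AT2G03540 had 87.1 in paraquat and 7.21 in mock leaves. Of these, AT3G07350 also had a ratio above 0 at 1 h (0.68) and at 4 h (0.88), with both arrays under the floor at 1 h. AT2G03540 had ratios of 0.98 at 1 h and 0.04 at 4 h, with both arrays under the floor at each of these hours. Among the 15 lowest, AT1G15490, an alpha/beta hydrolase gene, had 5.40 in paraquat and 109 in mock leaves, and AT2G26520 had 7.27 in paraquat and 95.9 in mock leaves. The ratios of AT2G26520 were -1.32, -1.65 and -1.14 at 1, 2 and 4 h, with both arrays under the floor at 1 h and 4 h. AT1G10980 had 7.81 in paraquat and 97.4 in mock leaves and a ratio of -1.65, after -1.89 at 1 h, but at 4 h it had 7.43 in paraquat and 7.67 in mock leaves. The mitochondrial gene nad1 had 9.40 in paraquat and 90.8 in mock leaves, AT2G01080 had 21.5 in paraquat and 91.5 in mock leaves, and the pseudogene AT5G28570 had 21.0 in paraquat and 88.4 in mock leaves. For the 32 higher probe sets with 1 array above the floor, the brighter signal had a median of 110.1 and was under 150 in 24 cases. For the 27 lower ones the median was 115.0, and 22 were under 150.

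Of the 22 higher and 15 lower probe sets with no gene or several genes, 251109_at had the largest ratio. Its signals were 4588, 9590 and 13872 in paraquat leaves, against 882, 1242 and 3080 in mock leaves, and its ratios 2.34, 2.91 and 2.16. Every paraquat signal was above every mock signal. Next were 258856_at, with ratios of 1.24, 2.14 and -0.49 at 1, 2 and 4 h, and 257631_at, with 1.63 at 2 h from signals of 99.4 in paraquat and 9.11 in mock leaves. The lowest were 262100_s_at at -1.59, 250248_at at -1.44 and 247956_at at -1.38. Of these 3, 250248_at was above the floor on all 6 arrays, with 359, 300 and 257 in paraquat leaves and 714, 870 and 556 in mock leaves. The annotation used gives no gene for 251109_at, 258856_at, 257631_at, 250248_at and 247956_at, and several for 262100_s_at.

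Since mock arrays of different hours also differ, each 2 h paraquat signal was placed among the 3 mock arrays. It lay above all 3 for 52 of the 64 higher probe sets, beside 21.8% of all 14223, and below all 3 for 28 of the 41 lower ones, beside 17.8%. The mock 2 h array was the lowest of all 6 arrays for 39 of the 64, beside 14.8%, and the highest of all 6 for 25 of the 41, beside 19.9%. The same 2 arrays chose the members, so these shares are a description. Of the higher cases 22, and of the lower 9, had the paraquat signal outside all mock signals while the mock 2 h array was not the extreme one. AT4G01870, AT1G76600, UGT73B5, AT2G41730, ATMDAR2 and AT3G62260 are among the 22, and AT1G47400, AT3G56360 and AT1G74450 among the 9.

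The arrays at 1 h and 4 h had no part in choosing the members, and the hours share no array. Of the 64 higher probe sets 47 were above the floor at 1 h, and 11 of these were at least 2-fold higher there and 0 at least 2-fold lower. Over all 14219 probe sets above the floor at 1 h, 0.457% were 2-fold higher, 0.324% lower and 0.781% either way. Over the 13755 above the floor at both 1 h and 2 h, the shares were 0.414% higher and 0.233% lower. At 4 h 49 of the 64 were above the floor, 15 were 2-fold higher and 1 was 2-fold lower. The 4 h shares were 1.24% higher, 0.524% lower and 1.76% either way over 13923 probe sets. Over the 13574 above the floor at both 2 h and 4 h they were 1.12% higher and 0.398% lower.

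Of the 41 lower probe sets 23 were above the floor at 1 h, 4 of them 2-fold lower and 1 2-fold higher. At 4 h 25 were above the floor, 6 of them 2-fold lower and 3 2-fold higher. Signs were shared more widely than the 2-fold size. Among members above the floor, 38 of 47 higher and 18 of 23 lower ones had the same sign at 1 h, and 37 of 49 and 17 of 25 had it at 4 h. The share of all probe sets with a ratio above 0 was 49.3% at 1 h and 47% at 4 h. The median ratios of the higher members were 0.62 at 1 h and 0.45 at 4 h, those of the lower members -0.50 and -0.68, beside medians of -0.00 and -0.02 over all probe sets above the floor at both hours. In size the ratio was largest at 2 h for 50 of the 64 and 33 of the 41, an order that the choice of members at 2 h favours.

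**Figure D3:**
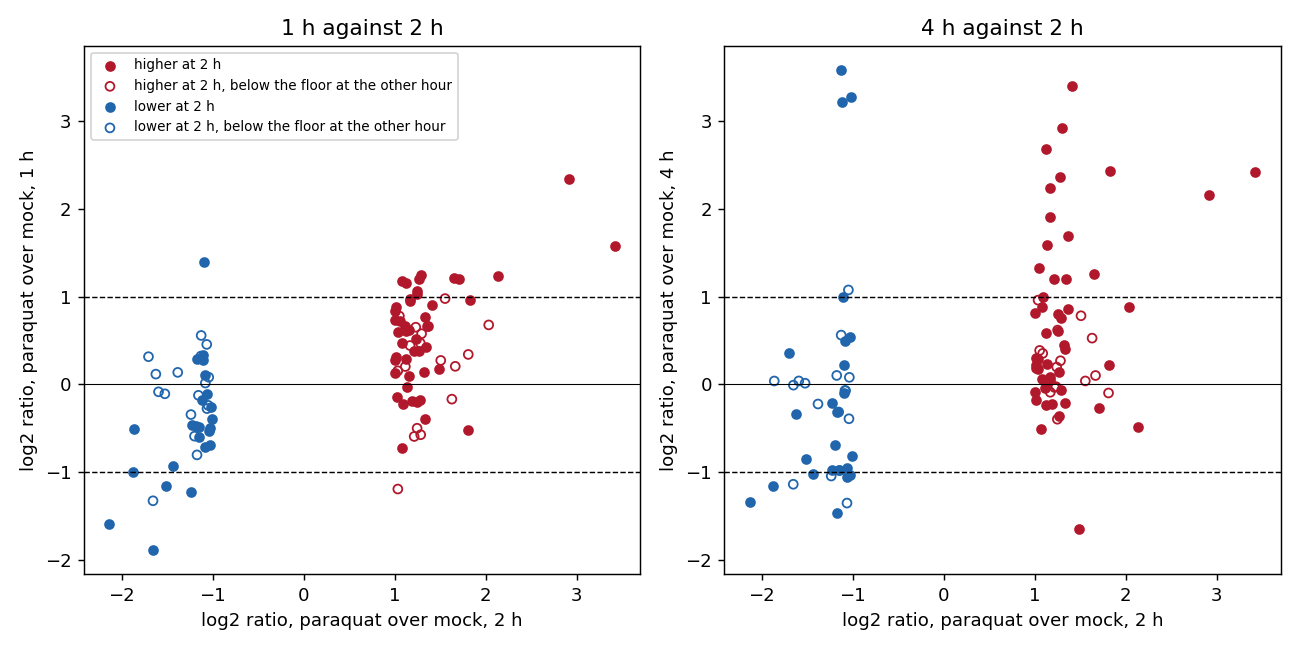
Log2 ratio of paraquat over mock at 1 h (left) and at 4 h (right) against the ratio at 2 h for the 105 probe sets, 1 point each. Filled points were above the floor at the other hour, open points below it, red were higher and blue lower at 2 h, and the dashed lines mark 2-fold. At 4 h, 15 red points lie above the upper line and 3 blue points stand above 3, on the opposite side from 2 h.

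The 23 higher probe sets that were also 2-fold higher at 1 h or 4 h fall into 3 time patterns by the 2-fold line. Some were just short of that line at the hour left out. AT4G01870 and AT2G41730 stood at 0.96 and 0.95 at 1 h, and AT5G19120 at 0.88 at 4 h. Higher by 2-fold at all 3 hours were AT3G20340, AT3G49160 and 251109_at. At 1 h and 2 h but not 4 h were the glutaredoxin AT3G62950, the protease AT5G19120, the Mediator subunit AT5G63480, the glycosyltransferase UGT85A7 and 258856_at, 245925_at, 258239_at and 264339_at. UGT85A7 had 90.8, 102 and 76.6 in paraquat leaves and 20.2, 22.4 and 107 in mock leaves. At 2 h and 4 h but not 1 h were 12, namely AT4G01870, AT1G76600, UGT73B5, AT2G41730, ATMDAR2, AT5G61590, AT5G14730 and 248799_at, 257299_at, 262518_at, 265200_s_at and 251584_at. AT5G14730, of unknown function, had 84.4, 219 and 568 in paraquat leaves, against 68.8, 82.4 and 60.2 in mock leaves, with ratios of 0.20, 1.12 and 2.68. The 4 h ratio was larger than the 2 h ratio for 10 of these 12, the exceptions being AT5G61590 and 257299_at.

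At neither 1 h nor 4 h were 41 of the 64 higher probe sets 2-fold different in the same direction, AT3G10760, AT5G48490, EXGT-A3 and AT3G62260 among them. A 2-fold difference at another hour was counted only above the floor there, so dim members could fail it by rule. It was seen at 1 h or 4 h in 16 of the 32 higher probe sets with both arrays above the floor and in 7 of the 32 with 1 array above it. Among the lower, it was seen in 6 of 14 and in 3 of 27. Of the 32 higher ones with both arrays above the floor, 31 could count at 1 h, against 47 of all 64. Of these 31, 6 were 2-fold higher at 1 h, beside 11 of the 47. Among the lower, the 1 h counts were 2 of 13, beside 4 of 23. Lower by 2-fold and above the floor at all 3 hours was AT5G05250. At 1 h and 2 h were AT3G56360, AT1G10980 and 248270_at, and at 2 h and 4 h AT1G47400, AT5G60800, AT3G28510, 245296_at and 250248_at. AT1G47400 was just short of 2-fold at 1 h, with a ratio of -0.99. The remaining 32 of the 41 lower probe sets, the defensins included, were not 2-fold lower above the floor at either of the other hours. Beside these counts stand array controls: the 25S rRNA probe set had 308, 111 and 243 in paraquat leaves at 1, 2 and 4 h and 124, 131 and 92.8 in mock leaves. The ratio of 3' to 5' signal of GAPDH was 1.15, 0.933 and 0.892 in paraquat leaves and 1.05, 0.913 and 1.01 in mock leaves. At 2 h both measures were closer between treatments than at 1 h or 4 h, but not every control was. An actin 3' control probe set had 3992, 3950 and 3795 in paraquat leaves at 1, 2 and 4 h and 4260, 5049 and 4372 in mock leaves. The part of these controls in the counts was not tested.

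Most gene families and pathways had no or few members among the 105. Of 26 UDP-glycosyltransferase genes above the floor, UGT73B5 and UGT85A7 were 2-fold higher, 0 were 2-fold lower, and the median was -0.02. UGT76B1, which acts on isoleucic acid and salicylic acid, had 292 in paraquat and 587 in mock leaves, a ratio of -0.93, and 1796 and 1794 at 4 h. UGT72B3 was at 0.51. Of 14 xyloglucan endotransglucosylase and expansin genes, EXGT-A3 alone passed 2-fold, with EXPA15 at -0.52, EXPA8 at -0.39 and XTH16 at 0.37. None of 17 cytochrome P450, 13 U-box and RING, 11 bZIP, 7 glutathione S-transferase, 6 WRKY or 14 glycosyl hydrolase genes passed it. Over all 7557 genes above the floor, 42 were 2-fold higher and 25 lower. At that share, a count of 0 in a group of this size says little about the family. CYP71B26 had the largest ratio among the P450 genes, at 0.90, with 264 in paraquat and 126 in mock leaves. Families were taken from the symbols and synonyms of the gene table, so members of a family that carry no such name are not counted in them. Left out in this way were the RING finger gene AT1G49200 and the glycosyl hydrolase gene AT3G15800, which both passed 2-fold.

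**Figure D4:**
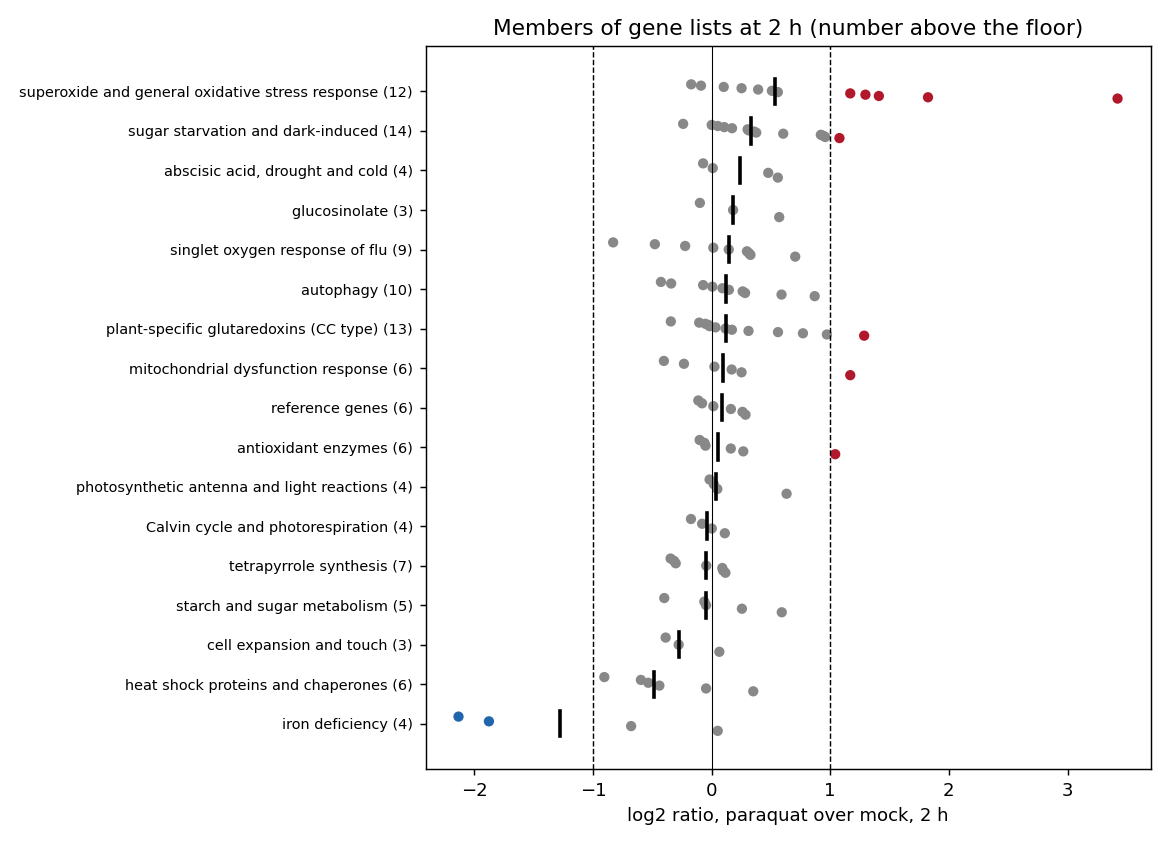
Log2 ratio of paraquat over mock at 2 h for members of the gene lists with at least 3 genes above the floor, 1 point a gene, black bars at the list medians, with the number of genes in brackets. Red points are at least 2-fold higher and blue at least 2-fold lower, and the dashed lines mark 2-fold. The oxidative stress list holds 5 red points and the iron deficiency list 2 blue ones, while medians of most other lists lie within 0.25 of 0.

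The genes of photosynthesis and chlorophyll synthesis that were measured had medians close to 0 at 2 h. Most listed genes had no probe set of their own. Measured were 4 of 36 for antenna and light reactions, 4 of 21 for the Calvin cycle and photorespiration, and 7 of 26 for tetrapyrrole synthesis. The 4 genes of antenna and light reactions had a median of 0.03, with the antenna protein gene LHCB4.2 highest at 0.63 from 4810 in paraquat and 3092 in mock leaves. The 4 genes of the Calvin cycle and photorespiration had a median of -0.04, with RCA at -0.17 and PRK at 0.11. The 7 of tetrapyrrole synthesis, the pathway that FLU restrains, had a median of -0.04, with GSA1 at -0.35 and PORB at -0.32. Of 9 singlet oxygen response genes of flu, 0 passed 2-fold in either direction, which says little in so short a list. Their median was 0.14. In that list AT1G05575 had 542 in paraquat and 319 in mock leaves, a ratio of 0.71 that reached 3.02 at 4 h, and AT5G64870 had 197 in paraquat and 377 in mock leaves, a ratio of -0.83.

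Heat shock genes ran lower at 2 h without reaching 2-fold. Of 6 above the floor 5 had a ratio below 0 and the median was -0.49, or -0.27 over the list without a floor. For the same 6 genes the median was -0.23 at 1 h, where 4 were above the floor, and 1.05 at 4 h. The co-chaperone gene Hop3 had 51.6, 126 and 153 in paraquat leaves at 1, 2 and 4 h, and 74.4, 265 and 54.3 in mock leaves, with ratios of -0.34, -0.90 and 1.08. The small heat shock gene AT5G51440 had 119, 396 and 836 in paraquat leaves and 136, 616 and 130 in mock leaves. In both genes the mock signal was highest at 2 h. Autophagy genes had a median of 0.12 over 10 genes, led by ATG8E at 0.87 with 880 in paraquat and 466 in mock leaves and ratios of 0.76 at 1 h and 0.79 at 4 h. In the list of mitochondrial dysfunction genes AT2G41730 was 2-fold higher, and the median of 6 genes was 0.10, with the NADH dehydrogenase gene NDB2 at -0.40. The 4 abscisic acid and cold genes above the floor had a median of 0.24 at 2 h, with COR47 at 0.48, and of -0.91 at 4 h. Without a floor the 2 h median of that list was 0.01.

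The nearest probe sets on either side of the 2-fold line show how little separates members from the rest. Just inside were 247109_at at 1.00, 261191_at at 1.01 and AT1G75180 at 1.01, and just outside were AT2G42900 at 0.99, AT4G04010 at 0.98 and 266010_at at 0.98. On the lower side, AT3G21080 at -1.01, 262911_s_at at -1.02 and IQD22 at -1.03 were inside, and 257382_at at -0.98, AT2G31290 at -0.97 and AT4G17670 at -0.96 outside. Members lay on every nuclear chromosome. Members with 1 nuclear gene gave 10 higher and 9 lower on chromosome 1, 7 and 3 on chromosome 2, 12 and 6 on chromosome 3, 5 and 3 on chromosome 4, and 8 and 4 on chromosome 5. Single-gene probe sets above the floor on chromosomes 1 to 5 numbered 2003, 1098, 1547, 1100 and 1825. Of the members, 4 of the 42 higher and 1 of the 25 lower are annotated as pseudogenes, and nad1 is mitochondrial. The share of pseudogenes over all genes is not given here. Of 69 single-gene plastid probe sets above the floor 0 passed 2-fold in either direction, beside 0.738% of all probe sets. At that share, a count of 0 says little. Neighbouring members in the same direction were AT4G10260 and AT4G10270, named above, and AT1G49110 and AT1G49200, which lie 9 protein-coding genes apart.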

How the data were processed

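Total RNA of rosette leaves was labelled with biotin and hybridised to Affymetrix ATH1 arrays, 6 in all and 1 for each treatment and hour, grouped by the titles. The deposited values are signal intensities on a linear scale, made by the authors with MAS5, as the submitters' processing notes name it, and its version is not given in the sources used here. After trimming 2%, signals averaged 500.04 on every array, so arrays had been scaled to 1 level and total RNA cannot be compared. The 64 control probe sets were left out. Ratios were computed here as log2(signal + 34), which understates the change of dim probe sets, and the floor of 86 is close to the 40th percentile of the signals. Python 3.11.15, numpy 2.4.6 and pandas 2.3.3 were used, and the counting was checked on simulated data. That check held only bright probe sets with changes well past 2-fold, so it does not cover dim members or ratios near the 2-fold line. No test was made, since precision is limited by the number of arrays. Detection calls were not analysed here.

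Of 22746 probe sets 13513 name 1 gene, 503 several and 8730 none in the given probe annotation, and 13436 of the 13513 matched the gene table. Named are the 15 highest and 15 lowest single-gene probe sets, all genes 2-fold different in the same direction at another hour, the leading genes of lists (up to 4, or 2 where none was 2-fold different) and the 3 highest and 3 lowest other probe sets. Other genes were named after their values were seen. Members, lists and families were chosen with earlier results of these data known, family patterns were corrected after their matches were seen, and functions were assigned from general knowledge after values were seen. For a gene with several probe sets, lists take the one with the highest mean signal. Promoter motifs were planned, but no promoter sequence was used here. Alternatives were other pseudocounts, floors, thresholds and scalings.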

Additional observations from a re-analysis of the deposited data

Results flagged for a closer look

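Of the 105 probe sets, 5 were at least 2-fold different in the opposite direction at another hour. The difference between hours was not tested, as each hour has 1 array a treatment. The probe set 260248_at had a log2 ratio of -1.12 at 2 h and 3.58 at 4 h. Its signals were 58.1, 168 and 890 in paraquat leaves at 1, 2 and 4 h, against 28.6, 406 and 43.3 in mock leaves. The probe set 266841_at had -1.12 at 2 h and 3.22 at 4 h, with 152, 275 and 869 in paraquat leaves and 177, 637 and 63.1 in mock leaves. The probe set 262911_s_at, which matches several genes, had -1.02 at 2 h and 3.28 at 4 h, with 93.1, 499 and 1780 in paraquat leaves and 118, 1048 and 153 in mock leaves. In all 3 the mock signal was highest at 2 h and the paraquat signal at 4 h. The heat shock genes Hop3 and AT5G51440 likewise had their highest mock signal at 2 h and their highest paraquat signal at 4 h.

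The probe set 248352_at had 1.48 at 2 h and -1.65 at 4 h, with 110, 137 and 106 in paraquat leaves and 93.8, 27.0 and 404 in mock leaves. AT3G15570, of the NPH3 family, had -1.09 at 2 h and 1.40 at 1 h, with 115, 40.8 and 189 in paraquat leaves and 22.4, 125 and 157 in mock leaves. In both, 1 of the 2 arrays was under the floor at 2 h.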

How the results depend on the processing

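The counts of 64 higher and 41 lower probe sets became 60 and 41 with quantile normalization and 58 and 42 with each array centred on its 75th percentile. They became 119 and 71 with a pseudocount 4 times smaller, 15 and 7 with one 4 times larger, 32 and 14 with the floor on both arrays and 146 and 134 without a floor. With signals raised to the floor they were 59 and 31, of which 39 and 19 were shared with the 105. A threshold of 1.5-fold gave 397 and 255, and of 3-fold 11 and 8. Also 2-fold higher at 1 h were 11, and 21, 2, 6, 89 and 1 with the smaller pseudocount, the larger one, the floor on both arrays, the 1.5-fold and the 3-fold threshold. Also lower at 1 h were 4, and 2 with the floor on both arrays, 8 without a floor, 37 at 1.5-fold and 2 at 3-fold. Also higher at 4 h were 15, and 25 and 7 with the smaller and the larger pseudocount, 99 at 1.5-fold and 3 at 3-fold. Also lower at 4 h were 6, and 11, 1, 11, 36 and 0 with the smaller and the larger pseudocount, no floor, the 1.5-fold and the 3-fold threshold. Of the 68 single-gene probe sets, 14 stayed past 2-fold under all 5 pseudocount and scaling alternatives: AT3G20340, AT4G01870, AT3G49160, AT1G76600, AT3G62260, AT3G10760, AT5G61590, AT2G41730, EXGT-A3, ATMDAR2, AT1G74450, AT3G56360, AT1G47400 and AT5G05250. A changed pseudocount or a raised floor cannot reverse the order of 2 signals, and a smaller pseudocount can only enlarge a ratio. Only the scalings could change a sign, and no ratio of a named member changed sign under them. The median over all probe sets moved by at most 0.018 under the scalings. List medians that changed sign lay within 0.09 of 0, as for WRKY, P450 and xyloglucan enzyme genes. The iron deficiency, heat shock and abscisic acid medians moved with the floor, as given above. No paired analysis was possible because the 2 h comparison has 1 array a side, so no array could be left out either; pairing by hour would give an effect averaged over hours, which was not fitted here. The dim probe sets set the limits here: the members with only 1 array above 86 depend on the pseudocount by construction.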

Other observations

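Several gene groups that hold no member of the 105 are given for completeness. The starch enzyme subunit gene APL3 had 408 in paraquat and 259 in mock leaves at 2 h, a log2 ratio of 0.59, and -1.04 at 4 h. The peroxidase gene AT5G39580 had 92.7 in paraquat and 51.8 in mock leaves, a ratio of 0.56. Of the peroxidases named by symbol or family, Prx37 and AT2G41480 had ratios of 0.70 and 0.69, with 145 and 96.9 in paraquat leaves and 76.2 and 47.1 in mock leaves. The glucosinolate synthesis gene AT2G25450 had 96.2 in paraquat and 53.7 in mock leaves, a ratio of 0.57, after 1.67 at 1 h.

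Smaller values were found elsewhere. The calmodulin-like gene CML38 was at 0.52 and the auxin response gene IAA18 at 0.46. The auxin-conjugating enzyme gene WES1 was at -0.39, the anthocyanin enzyme gene DFR at -0.29 and the expansin gene EXPA4 at -0.28. The transcription factor genes WRKY53, BZIP17, NAC014 and WRKY6 were at -0.48, -0.42, 0.40 and 0.35. The clock genes GI and FIO1 were at 0.09 and -0.20, and the ribosomal protein genes AT3G09630 and AT4G10450 at -0.29 and -0.25. The 6 reference genes had a median of 0.09, with AT5G55840 at 0.29 and AT5G46630 at 0.26.

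Mock leaves themselves differed between hours at several members. DEWAX (AT5G61590) was lower in mock leaves at 2 h than at 1 h by a log2 ratio of -2.33, and AT5G48490 by -1.68. For mock leaves at 4 h over mock leaves at 2 h, AT5G48490 had a log2 ratio of 2.36, EXGT-A3 of 1.91 and AT1G30700 of -2.11.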
